A study of Mus musculus with 6 samples.

Results

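The 9 genes described here encode the lipid-presenting molecule CD1d, proteins that bind or transfer lipids, and hydrolases that trim glycolipids: Cd1d1, Mttp, Psap, Gm2a, Npc1, Npc2, Glb1, Gla and Galc. They were chosen by name, and each symbol matched 1 of the 30587 rows of the count table. All 9 had enough reads for a test and stand among the 13249 rows tested. RNA was sequenced from dendritic cells grown from the bone marrow of C57BL/6 mice. KO cells came from CD11c-Cre;Hif2afl/fl mice (3 libraries), in which a Cre recombinase driven by the CD11c promoter acts on floxed alleles of Hif2a, the gene of the transcription factor HIF-2α, listed in the table as Epas1. WT cells came from Hif2afl/fl mice without the Cre transgene (3 libraries). Both genotypes had been incubated with the hydroxylase inhibitor DMOG, which stabilizes HIF α subunits, for 24 h and then with α-galactosylceramide (α-GalCer) for 4 h, so the data hold no contrast for the treatments themselves. The comparison bears on how HIF-2α affects the priming of glycolipid responses by dendritic cells.

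CD1d resembles an MHC class I molecule but holds lipids in place of peptides, and it shows them to natural killer T cells. It is assembled with β2-microglobulin in the endoplasmic reticulum, where microsomal triglyceride transfer protein places a first lipid. It then passes through the cell surface to endosomes and lysosomes, where saposins and other small proteins lift lipids out of membranes and exchange them in the CD1d groove. Lysosomal hydrolases remove sugars from glycosphingolipids, which can turn a precursor into a presented antigen or destroy one. α-GalCer is the standard activating ligand of invariant natural killer T cells.

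In KO cells 5 of the 9 genes fell (Glb1, Cd1d1, Gla, Gm2a and Psap), 2 rose (Npc2 and Galc), and Mttp and Npc1 did not pass the test. Over all rows tested, 12% fell and 13.8% rose at the same threshold, an adjusted p under 0.05 in the quasi-likelihood test of edgeR. The genotypes did not overlap in 7 of the 9 genes, against 40.4% of all rows tested. Without WT 2, without KO 3, or without both KO 1 and WT 2, 3 genes fell and 1 rose, and 1 rose when any single library but KO 2 was left out. Calls over all rows also became fewer without KO 3 (975 lower and 1195 higher, against 1586 and 1826 with all libraries) and without WT 2 (1082 lower and 1329 higher). Without both KO 1 and WT 2 the loss over all rows was smaller (1336 lower and 1636 higher). Without KO 1 alone, calls over all rows became more (1625 lower and 1971 higher), while 4 of the 9 genes fell and 1 rose. The median log2 fold change of the 9 genes was -0.19, and that of all rows was -0.01. Fold changes are KO over WT. The value after ± is the SE for a log2 fold change and the SD over 3 libraries for a level. Levels are CPM, read counts scaled by TMM to a common library size. Changes were small apart from Glb1, at 1.66-fold lower.

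Libraries held 14668641 to 17884160 counts. Epas1, the targeted gene, had 175, 214 and 198 reads in KO 1, 2 and 3, against 339, 352 and 349 reads in WT 1, 2 and 3. KO was thus 1.97-fold lower, with -0.98 ± 0.12 on the log2 scale (edgeR adjusted p = 3.45e-05). KO 1 and WT 2 stood apart, with reads in 22275 and 25408 rows, against 18763 to 19513 rows in the other libraries. Markers of conventional dendritic cells were present in all libraries, at a summed 5849 to 6554 CPM in KO and 6289 to 6452 CPM in WT over 12 genes, of which 5 rose and 3 fell. Macrophage and monocyte markers, which such cultures also express, summed to 3657 to 4137 CPM in KO and 3495 to 3718 CPM in WT, and 6 of the 10 rose and 0 fell. Over all rows tested, 13.8% rose and 12% fell. Csf1r and Cd68 had the most reads of the 10 and did not pass. Fcgr1 rose most, with a log2 fold change of 2.96 (edgeR adjusted p = 1.79e-11). Mast cell and basophil markers summed to 74.2 to 79.2 CPM in KO and 46.2 to 51.9 CPM in WT (of 3 tested genes, 2 rose), and plasmacytoid dendritic cell markers to 314 to 327 CPM in KO and 128 to 159 CPM in WT (both tested genes rose). Most of these came from Kit and from Bst2, while Fcer1a had at most 1 read and Siglech at most 2 reads in any library. Neutrophil markers summed to 22.3 to 34.8 CPM in KO and 24.3 to 34.4 CPM in WT (of 3 tested genes, 1 fell), and T, NK and NKT cell markers to at most 3.02 CPM in any library (1 tested gene, not called). The part that other cell types had in the results below was not tested. In bulk RNA, fewer cells of a type and less RNA per cell cannot be told apart.

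The levels of the 9 genes spanned several orders of magnitude when set per kilobase of exon. Psap, the precursor of the saposins, averaged 6278 ± 273 CPM per kb in KO and 7046 ± 229 CPM per kb in WT, and took 1.68% to 1.96% of all counts of a library. Npc2 followed at 393 ± 6.05 CPM per kb in KO and 317 ± 18.9 CPM per kb in WT. Gm2a came next with 244 ± 17.3 CPM per kb in KO and 279 ± 10.02 CPM per kb in WT. These 3 soluble lipid-binding proteins stood above the membrane transporter and the hydrolases in each library.

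**Figure D1:**
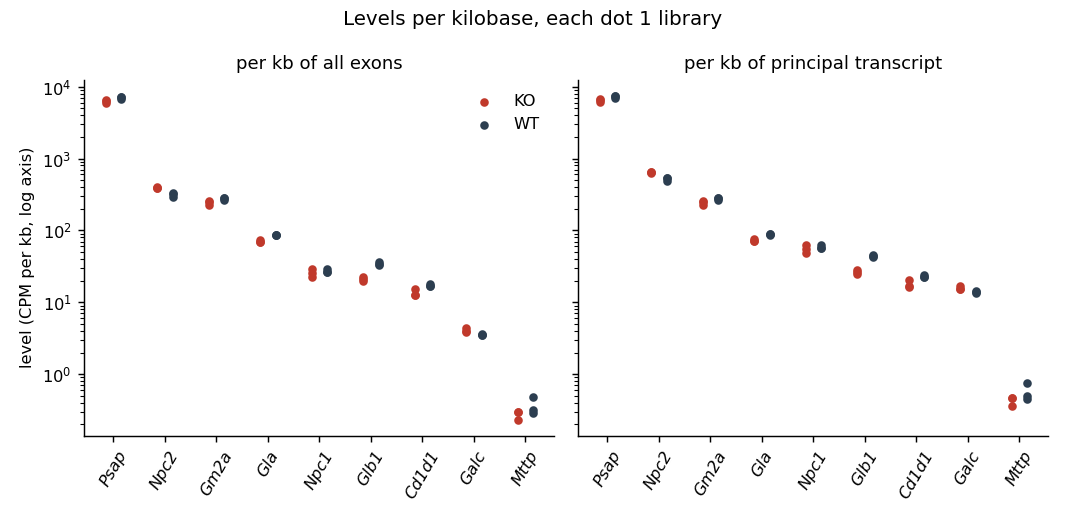
Levels of the 9 genes in CPM per kb on a log axis, KO left of WT and each dot 1 library, with 3 libraries per genotype. The left panel divides by the length of all exons and the right panel by the longest principal transcript. Psap lies above every other gene in both panels and Mttp below every other gene.

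Gla had 70.3 ± 2.23 CPM per kb in KO and 86.5 ± 1.13 CPM per kb in WT. Below it, Npc1 and Glb1 overlapped in KO, at 25.7 ± 3.38 and 21.01 ± 1.48 CPM per kb, whereas in WT Glb1 at 34.8 ± 1.40 CPM per kb stood above Npc1 at 27.0 ± 1.73 CPM per kb. Cd1d1 followed at 13.5 ± 1.53 CPM per kb in KO and 17.3 ± 0.656 CPM per kb in WT. Galc averaged 4.07 ± 0.239 CPM per kb in KO and 3.56 ± 0.0856 CPM per kb in WT. Mttp was lowest, at 0.277 ± 0.0373 CPM per kb in KO and 0.360 ± 0.105 CPM per kb in WT. Exon length weighs on the middle of this order. With the longest principal transcript as the length, chosen after seeing the data, Npc1 stood above Glb1 in both genotypes (55.7 against 26.4 CPM per kb in KO, 58.5 against 43.7 CPM per kb in WT), and Galc overlapped Cd1d1 in KO (15.8 and 17.8 CPM per kb).

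Cd1d1, the mouse gene of CD1d (chromosome 3, 86995834 to 86999441, minus strand, mm10), fell. It had 39.2, 32.1 and 32.7 CPM in KO 1, 2 and 3, against 43.5, 43.4 and 46.4 CPM in WT 1, 2 and 3. Each KO library lay below each WT library, and KO 1 was nearest to WT. Behind these values stand 542 to 715 reads per KO library and 670 to 736 reads per WT library. This is 1.28-fold lower, with a log2 fold change of -0.36 ± 0.08 (95% interval -0.54 to -0.17, edgeR adjusted p = 0.0074). Leaving out KO 3 ended the call (-0.32, edgeR adjusted p = 0.0508), and 15 alternatives gave an adjusted p between 0.000428 and 0.0508. Without KO 1 and WT 2 the log2 fold change was -0.47.

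Mouse chromosome 3 also carries Cd1d2, a close copy annotated as a polymorphic pseudogene (86986551 to 86989780, plus strand). The coding sequences of the 2 genes were 96.8% identical over 1007 aligned bases, and the longest identical run was 245 bases. Of the 50-base stretches in Cd1d1 transcripts, 19.1% also occur in Cd1d2, so a read of only that length from there could not be assigned to 1 of them. The 60 coding bases with most differences (GENCODE M21, coding positions 400 to 459 in both) are shown to make plain what sets the copies apart, with the 8 differing bases in capitals.
Cd1d1: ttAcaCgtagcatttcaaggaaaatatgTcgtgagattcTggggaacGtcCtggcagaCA
Cd1d2: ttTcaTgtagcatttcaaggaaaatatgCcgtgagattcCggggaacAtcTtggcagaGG
Cd1d2 had 7, 7 and 8 reads in KO 1, 2 and 3, against 18, 9 and 5 reads in WT 1, 2 and 3, too few for a test. Hence nearly all reads counted at the 2 genes were assigned to Cd1d1.

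B cells are known to carry CD1d, so their markers bear on Cd1d1. The 6 B cell markers summed to 4.66 to 6.09 CPM in KO and 9.07 to 10.2 CPM in WT, mostly from Ighm, which fell (log2 fold change -1.19, edgeR adjusted p = 0.000911). Cd79b had 16, 26 and 11 reads in KO 1, 2 and 3, against 18, 9 and 9 reads in WT 1, 2 and 3. Ms4a1 was at 0 in all KO libraries and in WT 1 and WT 3, with 5 reads in WT 2. Their part in the Cd1d1 result was not tested. Markers of conventional dendritic cells and of macrophages and monocytes, given above, had far higher sums, and the part of those cells was not tested either. The genes whose log2 CPM followed that of Cd1d1 most closely over the 6 libraries were Rsrp1 (Pearson r = 0.997), Dnase1l3 (0.995) and Ube2g1 (0.995), a description in which the genotype difference is shared by all 4 genes.

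**Figure D2:**
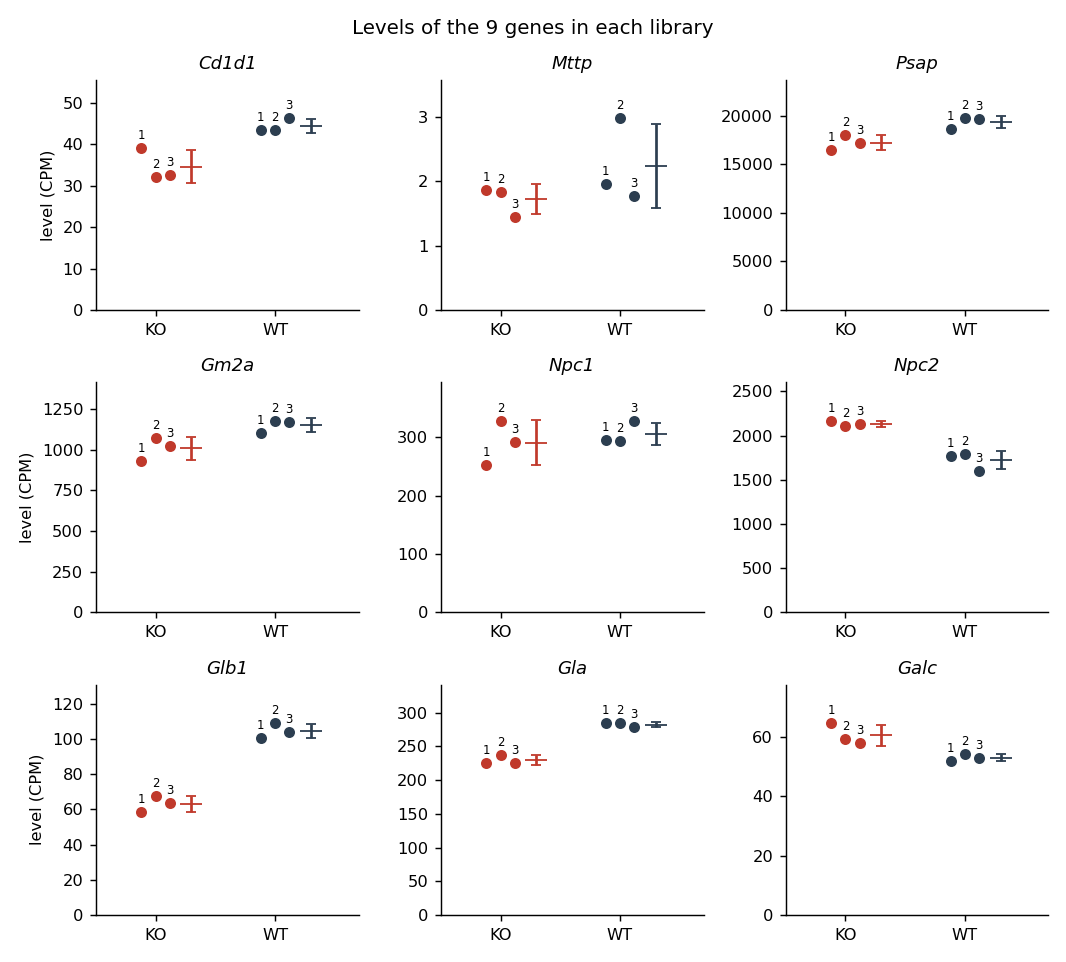
CPM of each of the 9 genes in each library (dots numbered by replicate, KO left of WT), with the mean and SD beside them (n = 3 libraries per genotype). The genotypes overlap in Mttp and Npc1 and are separate in the other 7 genes, with KO above WT in Npc2 and Galc.

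The partner of CD1d moved the other way. B2m, encoding β2-microglobulin, which CD1d shares with MHC class I, rose to 5125 ± 96.3 CPM in KO, against 4481 ± 254 CPM in WT (0.19 ± 0.04 on the log2 scale, edgeR adjusted p = 0.00344). With an offset for GC content and exon length, chosen after seeing the data, the log2 fold change was 0.40. For every 1000 reads of B2m there were 7.52, 6.24 and 6.51 reads of Cd1d1 in KO 1, 2 and 3, against 9.33, 9.45 and 11.1 reads in WT 1, 2 and 3. The genotypes were separate in this ratio, which does not depend on library scaling. The exact permutation test gave p = 0.1 (two-sided), the smallest that 3 against 3 libraries allow. This outcome was fixed in advance, because KO and WT did not overlap in either gene and the genes moved in opposite directions. The ratio thus restates the results of the 2 genes and adds no support to them.

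Among 5 genes of CD1d folding in the endoplasmic reticulum, 2 rose and 1 fell, and the median log2 fold change was 0.04, or 0.016 without WT 3, 0.074 with library size only and 0.093 with the offset for GC content and exon length. The chaperone gene Calr, encoding calreticulin, rose, with 0.24 ± 0.06 on the log2 scale (edgeR adjusted p = 0.015), a call lost without KO 2, KO 3 or WT 1, which left B2m as the 1 gene that rose. The chaperone genes Canx and Pdia3, outside the naming rule and given because all 5 genes are accounted for, had log2 fold changes of -0.13 ± 0.06 and 0.04 ± 0.06 and did not pass. P4hb, encoding protein disulfide isomerase, fell, being 1.24-fold lower (-0.32 ± 0.05 on the log2 scale, edgeR adjusted p = 0.000916). That protein is also the small subunit of the microsomal triglyceride transfer complex.

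Mttp encodes the large, lipid-transferring subunit of the same complex (chromosome 3, 138089854 to 138144968, minus strand). Its reads were few, at 34, 31 and 25 in KO 1, 2 and 3, against 33, 46 and 26 in WT 1, 2 and 3. The genotypes overlapped, and WT 2, the library with reads in most rows, was highest. An exact Poisson interval for the 46 reads of WT 2 runs from 33.7 to 61.4, and that for the 25 reads of KO 3 from 16.2 to 36.9, both covering counting error only. Its log2 fold change of -0.38 ± 0.27 did not pass (95% interval -0.95 to 0.20, edgeR adjusted p = 0.334), and it was -0.12 without WT 2. Exons of Mttp overlap Trmt10a and Gm43691 on the other strand over 7.36% and 2.13% of their length, and without a known strand setting those reads may not have been told apart.

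Among the lysosomal lipid-binding proteins, the 2 activator genes fell slightly and Npc2 rose. Psap (chromosome 10, 60277627 to 60302597, plus strand) encodes prosaposin, which is cut into the saposins that present sphingolipids to their hydrolases and also load CD1d. It had 16488, 17988 and 17204 CPM in KO 1, 2 and 3, against 18610, 19746 and 19646 CPM in WT 1, 2 and 3. All KO libraries lay below all WT libraries, but the gap between KO 2 and WT 1 was narrower than the range within either genotype. Psap was 1.12-fold lower, at -0.17 ± 0.03 on the log2 scale (95% interval -0.23 to -0.10, edgeR adjusted p = 0.0015). It did not pass without WT 2 (-0.15, edgeR adjusted p = 0.0553) or without KO 1 and WT 2 (-0.12, edgeR adjusted p = 0.143), and the smallest adjusted p of the 15 alternatives was 8.07e-05.

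Gm2a (chromosome 11, 55098115 to 55113029, plus strand) encodes the GM2 activator, which lifts gangliosides out of membranes and can load and unload CD1d. It had 930, 1070 and 1024 CPM in KO 1, 2 and 3, against 1104, 1179 and 1173 CPM in WT 1, 2 and 3. The genotypes were separate by a small gap between KO 2 and WT 1. A log2 fold change of -0.19 ± 0.06, or 1.14-fold lower (edgeR adjusted p = 0.0316), passed in 7 of 15 alternatives, whose adjusted p lay between 0.0152 and 0.18. It was -0.12 without KO 1 and WT 2 and did not pass when any single library but KO 2 was left out. Relative to Psap the gene did not separate the genotypes, with 56.4, 59.5 and 59.5 reads of Gm2a per 1000 reads of Psap in KO 1, 2 and 3 and 59.3, 59.7 and 59.7 in WT 1, 2 and 3 (exact permutation p = 0.3, two-sided).

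Npc2 (chromosome 12, 84754562 to 84773152, minus strand) encodes a soluble sterol-binding protein of the lysosome that hands cholesterol to the membrane protein NPC1. It had 2170, 2106 and 2127 CPM in KO 1, 2 and 3, against 1769, 1794 and 1604 CPM in WT 1, 2 and 3. KO libraries were close together and all above WT, where WT 3 was lowest. Npc2 was 1.24-fold higher, at 0.31 ± 0.05 on the log2 scale (95% interval 0.20 to 0.42, edgeR adjusted p = 0.000485), and it passed in 15 of 15 alternatives with values of 0.26 to 0.34.

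Npc1 (chromosome 18, 12189692 to 12236400, minus strand) had 252, 329 and 292 CPM in KO 1, 2 and 3, against 295, 294 and 328 CPM in WT 1, 2 and 3. KO 1 was lowest and KO 2 highest of all libraries, so that KO spanned the WT range. Its log2 fold change of -0.07 ± 0.09 did not pass (95% interval -0.26 to 0.12, edgeR adjusted p = 0.607), and its sign turned without KO 1 (0.022). For each read of Npc1 there were 8.60, 6.41 and 7.29 reads of Npc2 in KO 1, 2 and 3, against 6.00, 6.10 and 4.89 in WT 1, 2 and 3. These ratios did not overlap between genotypes (exact permutation p = 0.1, two-sided, the smallest possible). Exons of Npc1 overlap Rmc1 on the other strand over 4.52% of their length.

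**Figure D3:**
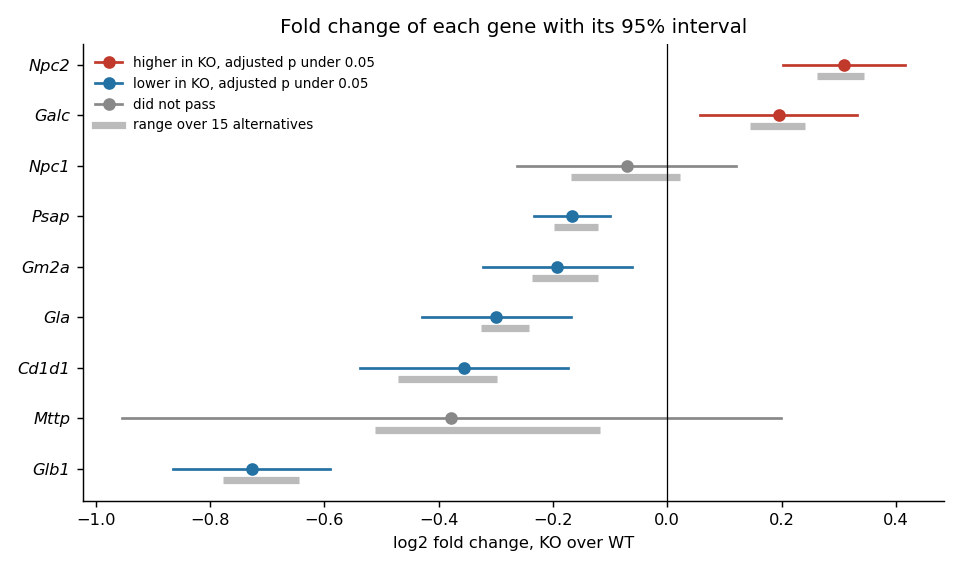
Log2 fold change of each of the 9 genes, KO over WT, with its 95% interval (thin line) and the range over 15 alternative settings (thick grey line). Intervals of Npc2 and Galc lie above 0, those of Mttp and Npc1 cross it, and those of the other 5 genes lie below it.

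Of the 3 galactose-removing hydrolases, Glb1 and Gla fell and Galc rose. Glb1 (chromosome 9, 114401076 to 114474898, plus strand) encodes lysosomal β-galactosidase, which takes the terminal galactose off GM1 ganglioside. It had 58.7, 67.6 and 63.4 CPM in KO 1, 2 and 3, against 101, 109 and 104 CPM in WT 1, 2 and 3. The genotypes were far apart relative to the spread within them. Glb1 was 1.66-fold lower, at -0.73 ± 0.06 on the log2 scale (95% interval -0.86 to -0.59, edgeR adjusted p = 2.21e-06), and it passed in 15 of 15 alternatives with values of -0.78 to -0.64.

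Glb1 shares its start with Tmppe, a gene for a membrane phosphoesterase-like protein on the same strand (114401105 to 114407276), and 165 exon bases are common to both, 5.49% of the exons of Glb1. Tmppe did not follow Glb1. It had 231, 282 and 242 reads in KO 1, 2 and 3, against 176, 166 and 224 reads in WT 1, 2 and 3, and its log2 fold change of 0.26 ± 0.15 did not pass (edgeR adjusted p = 0.24). It passed when WT 3 was left out (0.45, edgeR adjusted p = 0.0338) and in none of the other 14 alternatives, where the adjusted p reached 0.575. For each read of Tmppe there were 4.63, 4.05 and 4.52 reads of Glb1 in KO 1, 2 and 3, against 9.68, 10.2 and 6.81 in WT 1, 2 and 3, with no overlap (exact permutation p = 0.1, two-sided, the smallest possible). Glb1 had 1070 to 1141 reads per KO library and 1525 to 1704 reads per WT library. In unscaled reads both genes thus separated the genotypes, in opposite directions. This outcome was fixed in advance, and the ratio adds no support to the Glb1 call.

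Gla (chromosome X, 134588149 to 134601125, minus strand) encodes α-galactosidase A, which removes terminal α-linked galactose and can trim α-galactosylated ceramides for presentation. It had 225, 238 and 226 CPM in KO 1, 2 and 3, against 285, 284 and 278 CPM in WT 1, 2 and 3. Both genotypes were tight and well separated. Gla was 1.23-fold lower, at -0.30 ± 0.06 on the log2 scale (95% interval -0.43 to -0.17, edgeR adjusted p = 0.00263), and it passed in 15 of 15 alternatives with values of -0.33 to -0.24.

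Galc (chromosome 12, 98202294 to 98259459, minus strand) encodes galactosylceramidase, which splits β-linked galactosylceramide. It had 64.6, 59.1 and 58.0 CPM in KO 1, 2 and 3, against 51.8, 54.3 and 52.7 CPM in WT 1, 2 and 3. All KO libraries lay above all WT libraries, with KO 1 highest. A log2 fold change of 0.19 ± 0.06, or 1.14-fold higher (edgeR adjusted p = 0.0382), passed in 7 of 15 alternatives (adjusted p of 0.0103 to 0.154) and not when any single library but KO 2 was left out. For every 1000 reads of Gla there were 287, 248 and 257 reads of Galc in KO 1, 2 and 3, against 182, 191 and 190 in WT 1, 2 and 3 (exact permutation p = 0.1, two-sided, the smallest possible). Both genes separated the genotypes, in opposite directions, so this outcome was fixed in advance and adds no support to their calls.

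Of the 9 genes, Cd1d1 had no promoter window in the source used, and Npc1 was left out of the search. Promoter windows from RefSeq (build GRCm38.p6, 250 bases before to 50 after a start site) were examined for the other 7 genes. They were searched on both strands for the E-box CACGTG, which factors of lysosomal genes such as TFEB bind within longer sites, for the HIF core as ACGTG or GCGTG, and for the interferon-stimulated response element as GAAA, any 2 bases and GAAA. Each E-box also holds ACGTG on both strands. The windows of 4 genes are printed to set Glb1 and Gla, the 2 hydrolase genes that fell, beside Npc2 and Galc, the 2 genes that rose, and capitals mark every match. They are chr9:114400828-114401127 (plus strand), chrX:134600956-134601255 (minus strand), chr12:84773063-84773362 (minus strand) and chr12:98259410-98259709 (minus strand), each 5′ to 3′ on the strand of its gene.
Glb1: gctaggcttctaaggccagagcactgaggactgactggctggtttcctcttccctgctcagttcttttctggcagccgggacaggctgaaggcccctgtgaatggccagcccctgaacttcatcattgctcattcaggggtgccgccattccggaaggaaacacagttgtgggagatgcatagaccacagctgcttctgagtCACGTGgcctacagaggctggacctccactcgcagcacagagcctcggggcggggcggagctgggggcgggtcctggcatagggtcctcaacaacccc
Gla: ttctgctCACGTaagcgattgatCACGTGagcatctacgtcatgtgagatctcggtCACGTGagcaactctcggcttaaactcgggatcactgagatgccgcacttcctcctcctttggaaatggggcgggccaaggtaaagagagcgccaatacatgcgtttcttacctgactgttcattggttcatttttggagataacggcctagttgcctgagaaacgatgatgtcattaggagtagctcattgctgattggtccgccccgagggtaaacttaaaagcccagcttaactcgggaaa
Npc2: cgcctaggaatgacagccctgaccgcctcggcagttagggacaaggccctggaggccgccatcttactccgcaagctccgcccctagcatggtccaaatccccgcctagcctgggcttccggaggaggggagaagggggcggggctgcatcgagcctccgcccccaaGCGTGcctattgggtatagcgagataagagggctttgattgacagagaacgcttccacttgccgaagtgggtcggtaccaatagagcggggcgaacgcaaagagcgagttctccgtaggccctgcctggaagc
Galc: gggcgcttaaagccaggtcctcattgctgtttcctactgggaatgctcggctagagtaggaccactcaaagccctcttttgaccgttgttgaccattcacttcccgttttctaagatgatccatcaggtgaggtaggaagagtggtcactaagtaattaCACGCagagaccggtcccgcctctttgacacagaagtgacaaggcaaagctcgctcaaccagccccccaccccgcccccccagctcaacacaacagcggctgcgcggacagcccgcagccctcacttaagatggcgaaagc
The E-box occurred 2 times in the window of Gla and 1 time in that of Glb1, a window that also covers the start of Tmppe. No window of the other 5 genes held it, among them Psap and Gm2a, which also fell. Of all 27025 genes with windows, 8.09% held an E-box. ACGTG beyond the E-boxes occurred 1 time in Gla, and GCGTG occurred 1 time each in Npc2 and Galc and 2 times each in Gm2a and Mttp. A HIF core in either form was held by 46.7% of all genes. All these matches, the E-boxes included, are a description of letters only. No window of the 7 genes held the interferon element, which 3.99% of all genes did.

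The other genes of lysosomal sphingolipid breakdown went both ways. Of 12 listed, 3 fell and 1 rose, and the median log2 fold change of -0.02 turned to 0.01 without KO 1 and with library size only, and to 0.03 without KO 1 and WT 2. Ctsa, encoding the protective protein that holds β-galactosidase and the sialidase NEU1 in 1 complex, fell to 1063 ± 40.8 CPM in KO, against 1397 ± 55.4 CPM in WT (-0.39 ± 0.05 on the log2 scale, edgeR adjusted p = 0.000108). Neu1 rose, with 0.19 ± 0.06 on the log2 scale (edgeR adjusted p = 0.031), a call lost in 7 of 15 alternatives, among them leaving out any single library but KO 1. Glb1 was thus lower also relative to its complex partner, with 57.3, 61.2 and 59.8 reads per 1000 reads of Ctsa in KO 1, 2 and 3, against 75.1, 75.1 and 74.4 in WT 1, 2 and 3 (exact permutation p = 0.1, two-sided, the smallest possible).

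The acid ceramidase gene Asah1, whose product saposins also assist, fell (-0.32 ± 0.06, edgeR adjusted p = 0.00188).

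**Figure D4:**
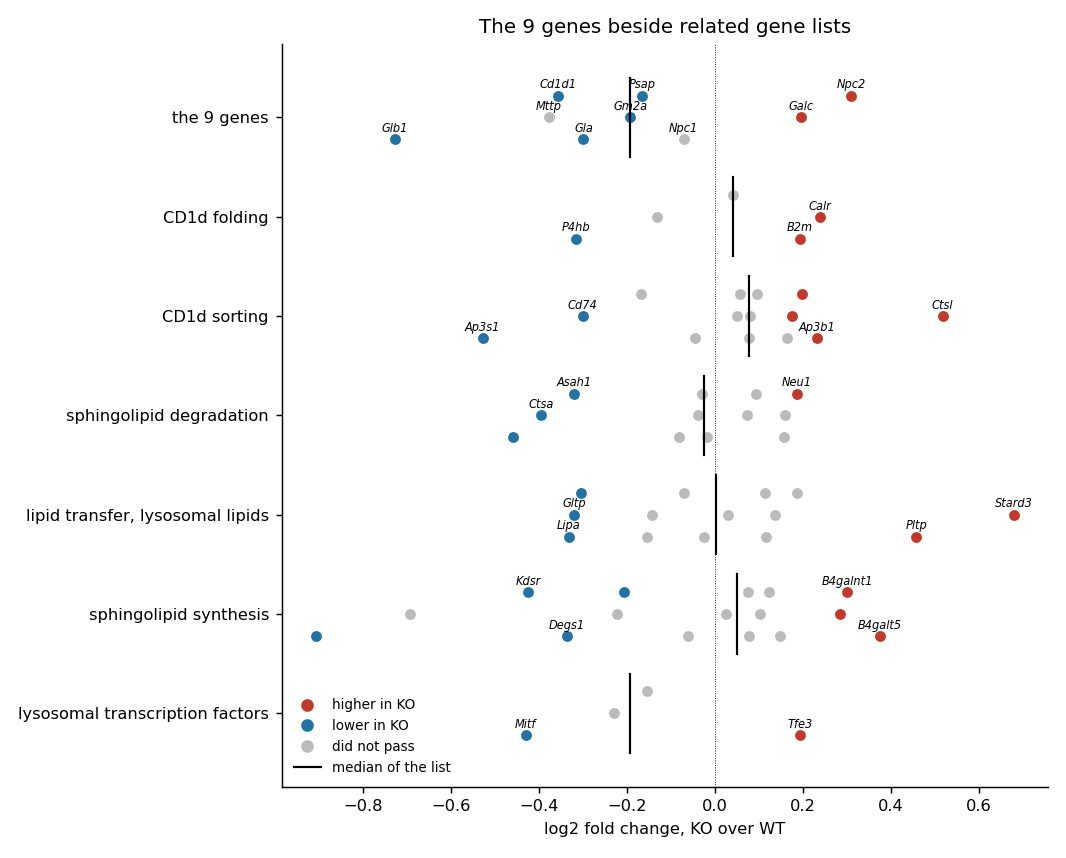
Log2 fold change, KO over WT, of the 9 genes (top) and of the tested members of 6 related lists, each dot 1 gene and each black bar the median of its list. Red dots rose, blue dots fell and grey dots did not pass, and in every list genes moved in both directions.

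Genes of CD1d sorting and maturation in endosomes rose in 4 and fell in 2 of 14 cases, with a median log2 fold change of 0.08, or 0.051 with that offset. Ctsl, encoding cathepsin L, a protease required in mouse thymus for CD1d presentation, rose to 2177 ± 81.3 CPM in KO, against 1521 ± 33.2 CPM in WT (0.52 ± 0.05 on the log2 scale, edgeR adjusted p = 2.33e-06). Subunits of the AP-3 adaptor, which carries mouse CD1d to lysosomes, differed in direction. Ap3s1 fell 1.44-fold (-0.53 ± 0.08, edgeR adjusted p = 0.0003). Ap3b1 rose (0.23 ± 0.06, edgeR adjusted p = 0.013), a call lost without WT 1. Cd74, the invariant chain, which binds CD1d as well as MHC class II, fell 1.23-fold (-0.30 ± 0.04, edgeR adjusted p = 0.000215). Of the 14 genes, 2 rose without KO 2, KO 3 or WT 3, and 1 rose without WT 1.

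Other genes of lipid transfer and lysosomal lipid handling rose in 2 and fell in 3 of 14 cases, with a median log2 fold change of 0.0026, whose sign turned in 7 of 15 alternatives. Stard3, for a sterol carrier of late endosomes, rose to 90.2 ± 5.99 CPM in KO, against 56.3 ± 8.10 CPM in WT (0.68 ± 0.09, edgeR adjusted p = 0.000105). Pltp, the phospholipid transfer protein gene, rose 1.37-fold (0.46 ± 0.07, edgeR adjusted p = 0.000212). Lipa, encoding lysosomal acid lipase, which frees the cholesterol that NPC2 binds, fell 1.26-fold (-0.33 ± 0.07, edgeR adjusted p = 0.00484). Gltp, a cytosolic glycolipid transfer protein gene, fell (-0.32 ± 0.06, edgeR adjusted p = 0.00213).

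On the synthesis side, 3 of 16 tested sphingolipid genes rose and 4 fell, with a median log2 fold change of 0.05, which was 0.015 without KO 2 and 0.029 without WT 2. The ceramide synthesis genes Kdsr and Degs1 fell 1.34-fold and 1.26-fold (-0.42 ± 0.09 and -0.34 ± 0.06 on the log2 scale, edgeR adjusted p = 0.00358 and 0.0016). B4galt5, which makes lactosylceramide, and B4galnt1, which makes GM2-type gangliosides, rose 1.30-fold and 1.23-fold (0.37 ± 0.07 and 0.30 ± 0.06, edgeR adjusted p = 0.00196 and 0.00253). Among 4 genes of lysosomal transcription factors of the TFEB family, Mitf fell 1.35-fold (-0.43 ± 0.07, edgeR adjusted p = 0.000893) and Tfe3 rose (0.19 ± 0.06, edgeR adjusted p = 0.0263), a call lost without KO 2, KO 3, WT 1 or WT 2 and with the GC and length offset (0.11). Tfeb itself, outside the naming rule, had a log2 fold change of -0.15 ± 0.06 and did not pass (edgeR adjusted p = 0.0897).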

How the data were processed

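RNA was sequenced in 6 libraries, 3 per genotype. The table the authors deposited holds raw counts of reads per gene symbol. The submitters' processing notes name the build mm10 and DESeq2, HTSeq, SAMtools, HISAT, HISAT2 and TopHat2, without roles or versions. Annotation and strand setting: not given in the sources used here. Whether libraries came from separate animals is not said in the labels, so p-values measure the spread between libraries.

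Of rows sharing a symbol (47 rows, 23 symbols) the one with most reads kept the name. Rows passing filterByExpr (minimum count 10) were scaled by TMM and tested with the quasi-likelihood test of edgeR 4.0.16 in R 4.3.3, genotype as the only term, with Benjamini-Hochberg adjustment over 13249 rows. The SE is the log2 fold change divided by the square root of F. Tested rows took 99.75% of counts or more in every library. Intervals use the moderated degrees of freedom. Lengths, positions and overlaps come from GENCODE M21 (mm10). The fit was tested on simulated data. All called changes had the right direction and most of the smallest changes were missed. False calls made up a larger share of calls than the adjusted p threshold allows for. The simulated tables held far fewer changed rows than were called here, so that share cannot be carried over to these data. Calls near the threshold may be less sure than their adjusted p states. No 2 replicates agreed within sampling noise (chi-square per degree of freedom at least 4.1). This value was 17.9 and 19.2 for WT 2 against WT 1 and WT 3, and 5.0 between WT 1 and WT 3. It was 13.2 and 7.27 for KO 1 against KO 2 and KO 3, and 4.1 between KO 2 and KO 3.

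Alternatives were DESeq2 size factors, no low-count filter, a minimum of 10 counts in all libraries of 1 genotype, library size only, the DESeq2 1.42.0 Wald test, limma-voom (limma 3.58.1), the replicate number as a block and each library left out. Added later were leaving out KO 1 with WT 2, offsets for GC content and exon length, and the principal transcript length. The 9 genes, the lists and the tests were chosen with earlier results of these data known. Named were the 9 genes, Epas1, Cd1d2 and Tmppe, up to 4 called members per related list by lowest p, the 3 genes most correlated with Cd1d1, and the 2 most-read markers per cell type, of which only those beside a result are given. Ms4a1, Fcer1a, Siglech and Fcgr1 were named after their values were seen. Some genes of these lists are not reported here by name.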

Additional observations from a re-analysis of the deposited data

How the results depend on the processing

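Glb1, Gla and Npc2 passed in the same direction in all 15 alternatives, Cd1d1 in 14, Psap in 13, and Gm2a and Galc in 7 each, and 115 of 135 values of the 9 genes kept direction and side of the threshold. Gm2a did not pass with library size only (-0.16) or no low-count filter (-0.18), and Galc did not with the DESeq2 Wald test (0.20). Without KO 1 and WT 2, Psap (-0.12), Gm2a (-0.12) and Galc (0.16) did not pass, leaving 3 genes lower and 1 higher. Leaving out 1 library gave 3 to 5 of the 9 genes lower and 1 to 2 higher. The ranges were -0.45 to -0.30 for Cd1d1, -0.20 to -0.14 for Psap, -0.24 to -0.14 for Gm2a, 0.15 to 0.23 for Galc, and -0.17 to 0.022 for Npc1, which turned sign. Over all rows, leaving out 1 library gave 1195 to 1971 higher and 975 to 1625 lower, the fewest without KO 3. With the replicate number as a block Galc did not pass (0.19, edgeR adjusted p = 0.055), so 1 gene was higher, and Neu1 did not pass (0.19); no other named gene lost its call, and the block gave 1741 rows higher and 1506 lower. Same-numbered libraries deviated from their genotype means with correlations of 0.01, -0.11 and 0.08, and differently numbered ones with -0.21 to 0.18. Deviations within a genotype are tied to each other, so these values cannot decide whether the numbers mark pairs. Of 345 values of related genes 328 and of 270 list counts and medians 236 were alike. The cause of these changes was not tested. Mttp had 25 to 46 reads in a library and Cd1d2 had 5 to 18, so counting error is wide for both.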
